A study of Mus musculus with 2 samples.

Results

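The GABPα binding sites described here are 514 of the 6782 peaks called in CD4+ T cells, 7.58% of the list (95% interval 6.97 to 8.23). They are the peaks that lie more than 1000 bp from every transcript start of the GENCODE M21 annotation and have under 50% of their bases soft-masked, that is, marked as repeats by lower case letters in the mm10 mouse genome. Of the other peaks, 3676 lie within 1000 bp of a start, and 2592 are distal but mostly soft-masked. Chromatin of mice called wild-type, on a C57BL/6 background, was precipitated with an antibody to GABPα in 1 library, and 1 library of input DNA was the control for peak calling. The paper gives the wild-type label to littermate controls with floxed Gabpa alleles (Gabpa f/f). Its ChIP-seq method names no allele beyond that label. The study asked which genes GABPα acts on directly in T cells. With 1 library there are no replicates, so the values describe that library and no p-value is given, and every interval is a 95% interval that covers counting error only. The list holds positions without counts, heights or enrichments, so the depth behind a peak is unknown and peak width was used for ranking. It holds no expression values either, so the identity of the cells could not be checked against marker genes.

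GABP is an Ets family transcription factor built of GABPα, whose Ets domain binds DNA around a GGAA core, and GABPβ, which activates transcription. It is known best for binding CCGGAAG sites in the promoters of housekeeping genes. Other Ets proteins that T cells make, ETS1 among them, read the same core, and CAGGAAG sites in the enhancers of lymphocyte genes are a known site of ETS1. Distal elements such as enhancers lie between genes or in introns and act on a promoter over a distance, which a peak list alone does not show. Below, CCGGAAG is called the C-form and CAGGAAG the A-form. Both were counted as exact matches on either strand, and a peak can hold both.

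The contrast between these forms ran through the distal peaks, so sites of each are shown first. The lines below give the C-form copy nearest the peak midpoint, in capitals, with 20 bases on either side on the strand that reads CCGGAAG, from the mm10 reference. They come from wide distal peaks with at least 50% of their 36-base sequences unique in the genome, each named for the coding gene with the nearest start, and from the peaks near the T-cell genes Lcp2 and Tnf. The peaks of Psmc2, Glyctk and Cpeb4 hold a start of the named gene in a further annotation, RefSeq.
Psmc2, chr5:21786703-21786749, minus strand: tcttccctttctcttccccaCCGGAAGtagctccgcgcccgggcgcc
Glyctk, chr9:106160103-106160149, plus strand: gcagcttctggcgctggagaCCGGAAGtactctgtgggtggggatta
Cpeb4, chr11:31870805-31870851, minus strand: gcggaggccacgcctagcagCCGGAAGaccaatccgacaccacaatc
Ccnl1, chr3:65974794-65974840, plus strand: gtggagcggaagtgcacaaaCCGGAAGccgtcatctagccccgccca
Lcp2, chr11:34008415-34008461, plus strand: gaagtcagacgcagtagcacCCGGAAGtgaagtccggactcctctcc
Tnf, chr17:35200629-35200675, minus strand: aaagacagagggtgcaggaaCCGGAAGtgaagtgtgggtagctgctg

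The A-form sites below, again in capitals, come from wide unique peaks with no C-form copy and from peaks near T-cell genes. The letters on either side of the motif vary among them.
Ski, chr4:155200915-155200961, plus strand: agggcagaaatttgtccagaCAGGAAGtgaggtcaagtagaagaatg
Itga9, chr9:118716104-118716150, minus strand: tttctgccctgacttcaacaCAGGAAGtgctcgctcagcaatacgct
Elf4, chrX:48433663-48433709, minus strand: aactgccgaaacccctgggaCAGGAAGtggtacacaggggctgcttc
Fli1, chr9:32570784-32570830, plus strand: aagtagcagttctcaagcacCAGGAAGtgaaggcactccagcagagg
Il6st, chr13:112427643-112427689, plus strand: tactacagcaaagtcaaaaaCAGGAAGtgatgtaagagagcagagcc
Socs3, chr11:118014525-118014571, minus strand: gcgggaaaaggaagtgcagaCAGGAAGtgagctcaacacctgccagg
Cd69, chr6:129284555-129284601, plus strand: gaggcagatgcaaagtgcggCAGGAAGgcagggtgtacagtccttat
Il21r, chr7:125630533-125630579, plus strand: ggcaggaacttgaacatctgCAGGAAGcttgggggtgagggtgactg
Cd27, chr6:125222356-125222402, plus strand: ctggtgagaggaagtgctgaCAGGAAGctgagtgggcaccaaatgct
Cdk8, chr5:146261088-146261134, minus strand: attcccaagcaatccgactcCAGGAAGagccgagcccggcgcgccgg

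The 514 distal peaks were of 2 sorts that the soft-masking did not separate. In 351 of them (68.3%, 64.1 to 72.2) at least 50% of the 36-base sequences, the length of the reads, occur 1 time in the genome, and these are called unique below. In 307 peaks every 36-base sequence was unique. The other 163 are called multi-copy, and 119 of them held no unique 36-base sequence at all. A read from such a peak matches several places, so its position rests on how the aligner placed it, which the sources used here do not give. The label of the distal peaks as outside repeats therefore holds for the soft-masked sequence but not for the copy number of 163 peaks. Among peaks near starts, 94.5% were unique, and among distal soft-masked peaks 1.35%.

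Some of the distal peaks resembled each other in sequence. Alignments of at least 60 bp joined 108 of the 514 peaks, unique ones among them, into 34 families of 2 or more. The largest was a set of 16 peaks on chr6:47655352-47772482, between Ezh2 and Pdia4, spaced by a median of 4340 bp, with a median GC content of 72.3% and a median of 14 copies of each 36-base sequence. None of the 16 held either motif form, and the 4.5S RNA gene Rn4.5s starts 258 bp from one of them. Another family lay at chr4:118547147-118548742, upstream of Tmem125, where 4 peaks of 165 to 527 bp held neither form. Chromosomes 6, 8 and 14 held 71 of the 163 multi-copy peaks (43.6%), some of them beside multigene families such as Gm21119 and Gm31371 on chromosome 8, whose copies share sequence and cannot be told apart. In a family of 4 peaks around Cyp4f16, Cyp4f18 and Cyp4f40, with a median of 76.6% unique 36-base sequences, 3 held the C-form.

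The C-form was in 108 of the 514 distal peaks (21.01%, 17.7 to 24.7). Of these 108, 104 were unique peaks, a share of 29.6% (25.1 to 34.6) of the unique peaks, and 4 were multi-copy peaks, a share of 2.45% (0.958 to 6.14). In windows of the same width 2000 bp to either side of the unique peaks that overlap no peak, 6 of 696 held it (0.862%), a difference of 28.8 percentage points (24.1 to 33.8). None of the 323 such windows of the multi-copy peaks held the C-form. The difference of the multi-copy peaks from them was 2.45 points (0.552 to 6.14) and rests on 4 peaks. Of all 149-bp tiles of the genome that meet the same rule of distance and soft-masking, 0.396% held it. Of the 2592 distal soft-masked peaks 0.502% held it, but the tiles leave out mostly soft-masked sequence, so they are no background for these peaks. Peaks near starts held it more often: 57.4% of the 3464 that were unique and not mostly soft-masked, so that the difference of the unique distal peaks from them was -27.8 points (-32.6 to -22.6). Those peaks were also wider, with a median of 210 bp against 153 bp, but in a fixed 200 bp around the midpoint the difference was still -24.9 points (-29.8 to -19.6). They also held more CpGs (a C followed by a G) outside C-form copies, a median of 8.51 against 2.61 per 100 bp. No neighbouring windows were counted for peaks near starts. The part of base composition in the differences between distal peaks and peaks near starts, for either form, was not tested.

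The A-form went the other way. It was in 166 of the 351 unique distal peaks (47.3%, 42.1 to 52.5) and in 17.1% (15.9 to 18.4) of the unique peaks near starts, a difference of 30.2 points (24.9 to 35.5). In 200 bp around the midpoint the difference was 32.2 points (26.9 to 37.6). The windows 2000 bp away held it in 7.18%, and the tiles of the genome that meet the rule in 5.04%. Among the multi-copy peaks the share was 5.52% (2.93 to 10.2), 0.878 points above their own neighbouring windows with an interval from -2.99 to 5.86, so no excess could be seen there. The A-form was counted after its frequency in the peaks had been seen, whereas the C-form is the textbook GABP site.

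**Figure D1:**
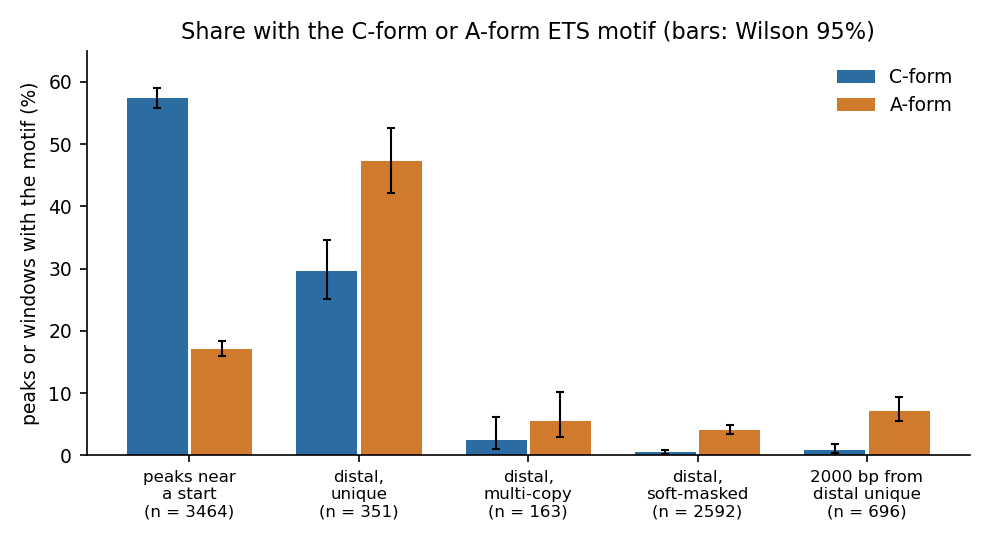
Share of peaks or windows, in percent, that hold the C-form (blue) or the A-form (orange) motif, with Wilson 95% intervals, in peaks near a transcript start, unique and multi-copy distal peaks, distal soft-masked peaks and windows 2000 bp from unique distal peaks. The C-form is the more common in peaks near starts (57.4% against 17.1%) and the A-form in unique distal peaks (47.3% against 29.6%).

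Both forms belong to the 16 sequences of 7 bases that end in GGAAG. In the unique distal peaks CAGGAAG ranked 1st and CCGGAAG ranked 2nd by the share of peaks. They were followed by GAGGAAG in 21.7% of the peaks, and then by GCGGAAG in 14.2%. These ranks are not an order of enrichment, since CAGGAAG (7.18%) and GAGGAAG (7.04%) also ranked 1st and 2nd in the neighbouring windows. CCGGAAG was in 0.862% of those windows and GCGGAAG in 0.575%. In unique peaks near starts CCGGAAG ranked 1st, while GCGGAAG came next with 28.2%. The A-form ranked 3rd there, and GAGGAAG was in 13.4%. The least common in the distal peaks were TCGGAAG (1.42%) and, next to it, ATGGAAG (1.71%). The windows held these in 1.15% and 3.59%, so the enrichment was not shared by every GGAAG. The bare GGAA core was in 96.6% of the unique distal peaks, but the neighbouring windows held it in 81.8%, so a core alone says little.

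The letters around the A-form differed from those of unselected copies. Among the copies nearest the midpoint of the 166 unique distal peaks, 61.4% followed an A and 57.8% were followed by a T, against 24.1% and 25.9% of the 54 copies in the neighbouring windows. Joined, ACAGGAAGT was in 70 of 351 unique distal peaks (19.9%, 16.1 to 24.4), in 3.32% of unique peaks near starts and in 4 of 696 neighbouring windows (0.575%). The corresponding ACCGGAAGT was in 7.69% (5.34 to 10.96) of the unique distal peaks and 9.27% (8.35 to 10.3) of those near starts, and in none of the 696 windows. The following T was not particular to the A-form. It also followed 53.8% of C-form copies in unique distal peaks and 48.5% in unique peaks near starts. A-form copies in unique peaks near starts followed an A in 39.1% and were followed by a T in 37.8%. Among all 7-base sequences, CACTTCC (its other strand reads GGAAGTG) and CAGGAAG stood furthest above the neighbouring windows in percentage points in the unique distal peaks, in 44.2% against 3.02% and in 47.3% against 7.18%. As a ratio to the windows CGGAAGT (27.1% against 0.575%) and the C-form (29.6% against 0.862%) stood further above them than either. In the 191 unique peaks that lack even CGGAAG, the leading sequences were AGGAAGT, at 58.1%, and CAGGAAG, at 56.0%. The multi-copy peaks were led by GC-rich sequences such as CCAGCGA (13.5%). None of their first 8 held GGAAG, though GGGAACC, which holds the bare GGAA core, was in 14.1% of them against 1.55% of their windows. Peaks alike in sequence were each counted here, among them the 16 of the chromosome 6 family. The part of that family in these shares was not tested.

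Copies of both forms sat near the middle of the peaks. In the 104 unique peaks with a C-form, the copy nearest the midpoint lay a median of 14.5 bp from it (quartiles 6 and 29.2 bp), and 72 copies (69.2%) lay within 25 bp, a zone that holds on average 30.2% of the bases of those peaks. In the 166 peaks with an A-form the median was 17.5 bp (8 and 30.8 bp), and 106 copies (63.9%) lay within 25 bp, a zone with 33.6% of the bases. Since the copy nearest the midpoint was chosen, some excess there is built in. In the 593 unique peaks near starts that hold an A-form the median was 30 bp and 45.7% of the copies lay within 25 bp, but these peaks are wider and that zone holds 24.3% of their bases, so the distances alone do not show less central copies there.

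**Figure D2:**
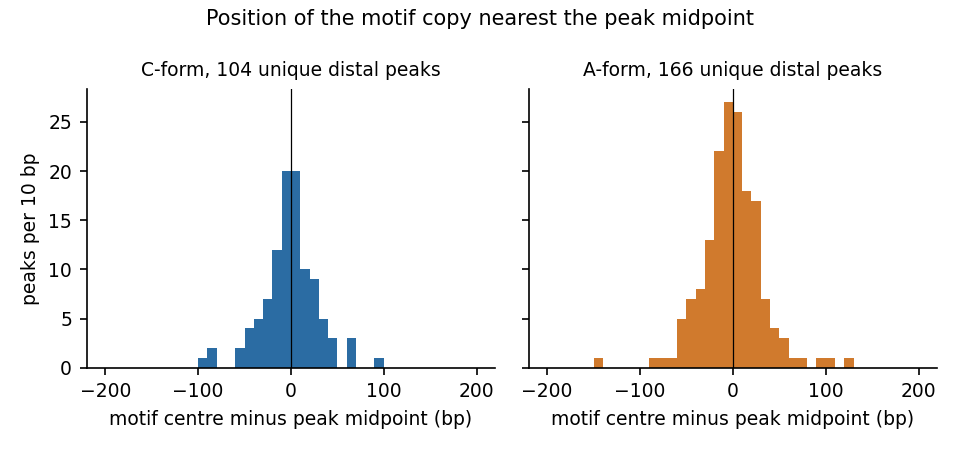
Distance of the centre of the motif copy nearest the midpoint from that midpoint, in bp, as the number of unique distal peaks per 10 bp, for the C-form (left, 104 peaks) and the A-form (right, 166 peaks). Both pile up at the midpoint, with medians of 14.5 and 17.5 bp.

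The share of the forms followed the distance to a transcript start. Among unique peaks outside repeats, those covering a start held the C-form in 61.0% and the A-form in 17.1%. Peaks 1 to 1000 bp away held them in 41.8% (38.1 to 45.7) and 17.1% (14.4 to 20.2). From over 1 to 5 kb the shares were 33.8% (26.4 to 42.1) and 44.1% (36.05 to 52.5), and from over 5 to 20 kb 29.4% (22.5 to 37.3) and 48.3% (40.2 to 56.4). From over 20 to 50 kb they were 20.97% (12.7 to 32.6) and 53.2% (41.0 to 65.1). Beyond 50 kb there were 10 peaks, too few to place either share. Over these distal bins up to 50 kb the C-form shares fell and the A-form shares rose, but the intervals of each form overlap. A trend past 1 kb was not tested. The step of the A-form at 1000 bp exceeds its intervals. Either form was found in 67.6%, 69.2% and 64.5% of the peaks in the distal bins up to 50 kb, in 55.4% (51.5 to 59.2) of peaks 1 to 1000 bp from a start and in 70.1% of peaks that cover one.

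**Figure D3:**
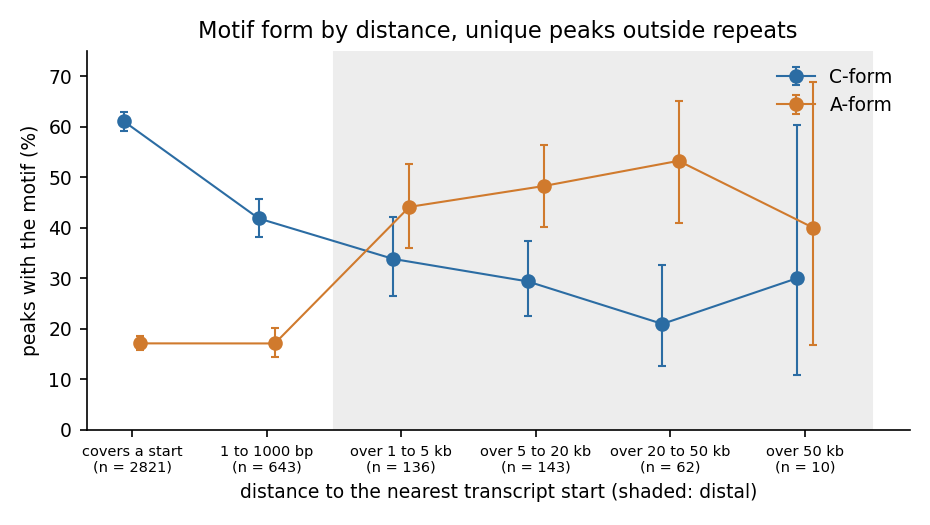
Share of unique peaks outside repeats with the C-form (blue) or the A-form (orange), in percent with Wilson 95% intervals, by distance to the nearest transcript start of any kind, with the distal bins shaded. The A-form is at 17.1% in both bins up to 1000 bp and at 44.1% or more in the bins from over 1 to 50 kb.

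Of the 351 unique distal peaks, 71 held the C-form only, 133 the A-form only, 33 both and 114 neither. The peaks with 1 form differed in their sequence outside the motif. A CpG is part of the C-form, so CpGs were also counted outside its copies: there were a median of 4.37 per 100 bp (quartiles 2.49 and 7.06) in C-form-only peaks and 1.85 (0.833 and 2.92) in A-form-only peaks. The median GC content was 58.9% and 53.6%. For comparison, unique peaks near starts had 8.51 CpGs per 100 bp and a GC content of 64.3%. Median widths were 171 bp for the C-form and 145 bp for the A-form, and 139 bp for the peaks with neither. Of the 114 with neither form, 102 still held a GGAA core. RUNX proteins are partners of Ets proteins at lymphocyte elements, and their site TGTGGT was in 20 of 133 A-form-only peaks (15.04%, 9.95 to 22.1) and 4 of 71 C-form-only peaks (5.63%, 2.21 to 13.6). Peaks with both forms held it in 5 of 33 (15.2%) and peaks with neither in 17 of 114 (14.9%). Over all unique distal peaks it was in 13.1%, against 13.2% of the neighbouring windows. The SP/KLF box GGGCGGGG, common in CpG-rich promoters, was in 14.1% (7.83 to 24.0) of the C-form-only and 3.76% (1.62 to 8.50) of the A-form-only peaks, and in 0.718% of the windows. Peaks with both forms held the box in 12.1% and peaks with neither in 10.5%.

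Sites of other factors were less frequent in the unique distal peaks. The E-box CAGCTG was in 12.8% of them (9.72 to 16.7) and in 6.61% of the neighbouring windows (4.99 to 8.70). Of the 351 peaks 7 had the cAMP response element TGACGTCA, and so did 2 of the 696 windows. The AP-1 site TGANTCA was in 5.98% (3.95 to 8.97) and 4.60% (3.28 to 6.42), and the CTCF site, which marks many distal elements, in 5 of the 351 peaks. The Ets-RUNX composite GGATGTGG was in 13 of the 351 (3.70%, 2.18 to 6.23) and in 1.44% of the windows (0.782 to 2.62). Of the 17 motifs of the list and apart from the Ets forms and cores, the intervals of the peaks and the windows did not overlap for the SP/KLF box and for CAGCTG.

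The 514 distal peaks were intergenic in 246 cases (47.9%, 43.6 to 52.2), intronic in 214 (41.6%, 37.5 to 45.9) and exonic in 54 (10.5%, 8.14 to 13.5), where 1 bp in any exon of a GENCODE gene made a peak exonic. Tiles of the genome that meet the rule were 50.1% intergenic, 44.1% intronic and 5.75% exonic, so over all 514 peaks the exonic share alone had an interval that leaves out the tiles. Among the 351 unique peaks the intergenic share, 42.2% (37.1 to 47.4), left out that of the tiles as well, and the exonic share was 12.8% (9.72 to 16.7). Distal soft-masked peaks were 70.1% intergenic and 0.694% exonic. Of the 54 exonic peaks, 22 overlapped coding sequence, 14 a UTR only and 18 an exon of a noncoding transcript. The C-form was in 10 of the 22 and the A-form in 5. Of the 214 intronic peaks, 187 lay inside a coding gene and 104 had their midpoint in the first intron of a coding transcript. Unique peaks were intergenic less often than multi-copy peaks, with a difference of -17.96 points (-26.8 to -8.68).

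The nearest start of a coding gene lay a median of 14291 bp away (interval of the median 12238 to 17621 bp, quartiles 4931 and 36298 bp). Of the 514 peaks, 130 (25.3%) had it within 5 kb, 173 (33.7%) from over 5 to 20 kb, 111 (21.6%) from over 20 to 50 kb and 100 (19.5%) further away. The farthest was 477388 bp from any coding start. Peaks upstream of the nearest coding start made up 48.6% (44.3 to 53.0), so neither side was favoured beyond counting error. The peaks were mostly alone: 95 of 514 (18.5%) had another peak of the list within 10 kb, and the median distance to the next peak was 72341.5 bp.

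The forms also differed in place. C-form-only peaks lay upstream of the nearest coding start in 64.8% and A-form-only peaks in 39.8%, a difference of 24.9 points (10.6 to 37.8). They were intronic in 28.2% against 57.9%, a difference of -29.7 points (-41.9 to -15.5), exonic in 19.7% against 6.77% (difference 13.0 points, 3.52 to 24.1) and intergenic in 52.1% against 35.3% (16.8 points, 2.57 to 30.3). A coding start lay within 5 kb of 36.6% of the C-form-only and 21.8% of the A-form-only peaks, a difference of 14.8 points (1.96 to 28.0), and the median distances were 8900 and 15470 bp. A RefSeq start lay within 1000 bp of 19.7% of the C-form-only and 4.51% of the A-form-only peaks, a difference of 15.2 points (6.13 to 26.2). Such peaks were kept in the contrasts above.

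**Figure D4:**
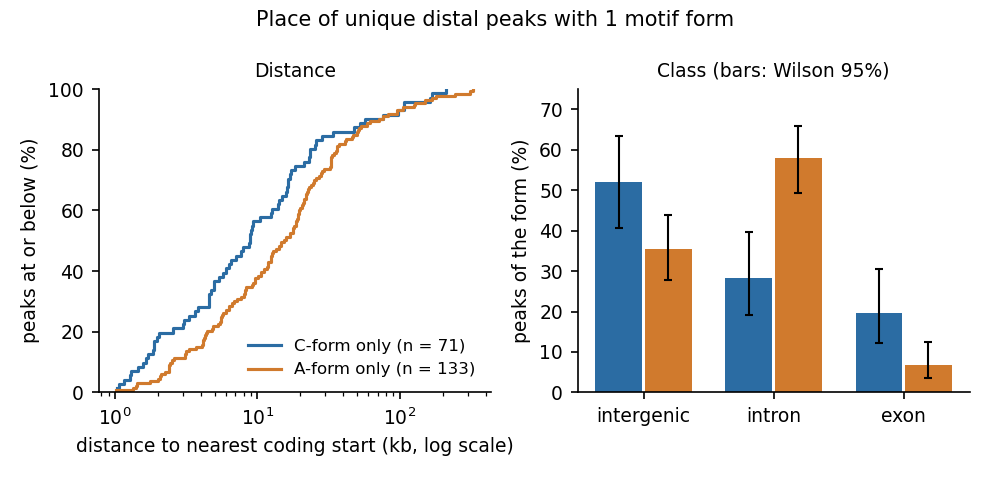
Unique distal peaks with only the C-form (blue, 71 peaks) or only the A-form (orange, 133 peaks): left, the percent of peaks at or below each distance to the nearest coding start, in kb on a log scale; right, the percent in each class with Wilson 95% intervals. The medians of the distance are 8900 and 15470 bp, and 57.9% of the A-form-only peaks are intronic against 28.2% of the C-form-only peaks.

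Some of the distal peaks lie at starts that the GENCODE annotation does not list. A RefSeq transcript started within 1000 bp of 48 of the 514 (9.34%), and inside the peak in 24. The nearest RefSeq start was that of an mRNA in 26 of the 48 and of a long noncoding RNA in 17. Among unique peaks, the C-form was in 18 of 33 with such a start (54.5%) and in 27.04% of the 318 without, a difference of 27.5 points (10.2 to 43.8), and the A-form in 30.3% and 49.1%, a difference of -18.8 points (-32.8 to -0.868). The RefSeq starts inside C-form peaks include those of Sin3a, a scaffold of histone deacetylase complexes, Psmc2, a proteasome ATPase, and Cpeb4, an mRNA-binding protein. Those of the zinc finger genes Zfp869 and Zkscan7 are also among them. These 5 genes were picked after the values were seen. Without the 48 peaks the C-form was in 18.7% (15.4 to 22.5) of the remaining 466.

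The 5 widest distal peaks were of several kinds. The widest, chrX:75673858-75674579 (722 bp), is intergenic, 95627 bp upstream of Rab39b, and held 9 copies of the A-form on 1 strand, spaced by a median of 62 bp. The next, chrX:170675022-170675726 (705 bp), overlaps coding sequence of Asmt, which makes the last enzyme of melatonin synthesis, 2378 bp downstream of its start, and held 22 copies of the A-form on 1 strand with a median spacing of 21 bp. Its middle 140 bp show this array, with the A-form in capitals.
Asmt, chrX:170675304-170675443, plus strand: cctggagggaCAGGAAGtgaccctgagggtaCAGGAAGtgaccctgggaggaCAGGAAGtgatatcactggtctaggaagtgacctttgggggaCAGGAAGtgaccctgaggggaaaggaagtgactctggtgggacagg
The Rab39b peak belonged to a family of 4 peaks on chromosomes X and Y, 249 to 722 bp wide, all 4 of which held the A-form. The third, at chr4:118548216-118548742 (527 bp) near Tmem125, and the fourth, at chr10:81996866-81997351 (486 bp) near Zfp873, are multi-copy, the former with neither form and the latter with 1 C-form copy at the start of the RefSeq noncoding gene Gm10777. The fifth, chr12:8640726-8641183 (458 bp), lies 32951 bp upstream of Pum2, an RNA-binding repressor of translation, and held 1 A-form copy.

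The 10 widest unique peaks with a C-form ranged from 277 to 442 bp, at least as wide as 87.8% of the whole list. Those nearest to Psmc2 (343 bp, 1269 bp downstream of the start), Glyctk, a glycerate kinase (423 bp, 1708 bp upstream, 3 copies), Cpeb4 (322 bp, 1254 bp upstream, 2 copies) and Pi4k2a, a phosphatidylinositol kinase (283 bp, 1071 bp upstream), lay just past the 1000 bp limit. Capg (296 bp, 5383 bp upstream) and Rtp3 (287 bp, 4132 bp upstream, 2 copies) followed. Further away were Ccnl1, a cyclin of the splicing machinery (313 bp, 16441 bp), Eif2s3x, a translation initiation factor (442 bp, 34387 bp downstream), and Wnt7b, a Wnt ligand (322 bp, 52121 bp, 2 copies), whose peak holds the start of the RefSeq noncoding gene D130051D11Rik. The peak at chr11:44892983-44893259 (277 bp, 2 copies) lies in an intron of Ebf1, which directs B-cell development, 18879 bp from the nearest start of that gene. All these distances are to GENCODE starts. In RefSeq, the peaks of Psmc2, Glyctk and Cpeb4 hold a start of the named gene. RefSeq starts of Pi4k2a and Capg lie 749 and 431 bp from their peaks.

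The 10 widest unique peaks with the A-form and no C-form included Rab39b, Asmt and Pum2. Of the others, those of Cdk8 (422 bp), Ski (288 bp, 2 copies), B3gnt2 (224 bp) and Itga9 (222 bp) are intronic in the named gene. The Ski peak, 12505 bp upstream of the nearest start of this repressor of TGF-β signalling, is at chr4:155200801-155201088. Those nearest to Nlgn3 (298 bp), Slc25a5, the mitochondrial ADP/ATP carrier (261 bp), and Midn (240 bp, 2 copies) are intergenic and lie 18066, 10625 and 7138 bp downstream of the start.

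Genes known for their role in T cells lay near the distal peaks more often than coding genes at large. Of 146 genes in 5 T-cell lists, 17 (11.6%, 7.40 to 17.9) had a distal peak within 50 kb of a transcript start, beside 888 of all 21938 coding genes (4.05%). Of 80 genes typical of B cells, myeloid cells, neurons and liver, 2 had one (2.50%, 0.688 to 8.66). With unique peaks only the counts were 16 of 146 (10.96%) and 3.26% of all coding genes. At the starts themselves the order was the reverse: a peak lay within 1000 bp of a start of 12 of the 146 T-cell genes (8.22%, 4.76 to 13.8) and of 17.7% of all coding genes. The T-cell genes had a median of 1 other coding gene with a start within 50 kb and all coding genes a median of 2. The part of gene spacing in the result was not tested. No list is large enough for its own interval to be narrow, and a peak near a start does not show that it acts on that gene. The gene lists were chosen with earlier results of these data known, so the counts describe these peaks and test nothing.

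**Figure D5:**
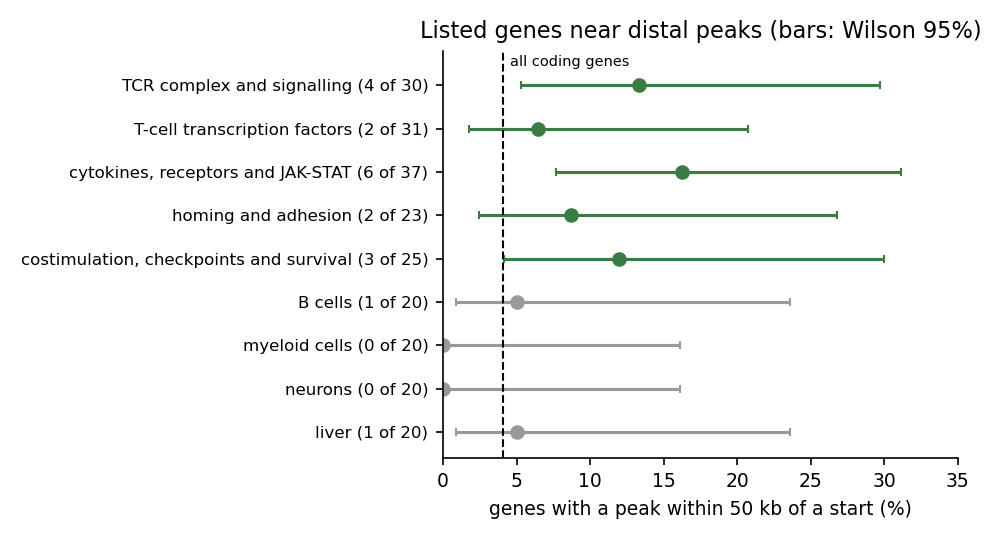
Percent of the genes of each list with a distal peak outside repeats within 50 kb of a transcript start, with Wilson 95% intervals; T-cell lists are green, other lists gray, and the dashed line is the share of all coding genes (4.05%). The point of each of the 5 T-cell lists lies right of the line, and the intervals of the T-cell transcription factors and of homing and adhesion cross it.

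By motif form, 9 T-cell genes had a peak with the A-form within 50 kb (6.16%, 3.28 to 11.3; all coding genes 1.51%) and 3 a peak with the C-form (2.05%, 0.701 to 5.87; all coding genes 1.2%). The 17 genes corresponded to 17 peaks, 9 with the A-form and 2 with the C-form, with 1 peak that held both, and 16 of the 17 were unique. Another coding gene had the nearer start for Lcp2, Il21r, Lta, Socs3, Itgal, Tnfrsf9 and Cd27, and for the upstream peak of Il10ra. It was Pgs1 at 2105 bp for Socs3, Vamp1 at 3712 bp for Cd27 and Dctpp1 at 6177 bp for Itgal.

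Of 30 genes of the T-cell receptor complex and its signalling, 4 had a distal peak (13.3%, 5.31 to 29.7). The peak 38372 bp upstream of Lcp2, which encodes the adaptor SLP-76, held both forms and lies at chr11:34008354-34008548 in an intron of a noncoding gene, where Kcnip1 is the coding gene with the nearer start. The peak at chr17:57275153-57275304 is intergenic, 3796 bp upstream of Vav1, a guanine nucleotide exchange factor of receptor signalling, and held 4 GGAA cores but neither form. Peaks inside Prkcq (PKCθ, chr2:11204402-11204518, 22350 bp from a start) and Ptprc (CD45, chr1:138125417-138125521, 4697 bp from a start) also held neither. Of 31 transcription factors, the Ets family members Elf4 and Fli1 had a peak (6.45%, 1.79 to 20.7). The Elf4 peak (chrX:48433640-48433749, 20420 bp from a start) is intronic with 1 A-form copy, and the Fli1 peak (chr9:32570726-32570896, 27865 bp upstream) is intergenic with 2 copies and 7 GGAA cores.

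Of 37 genes of cytokines, receptors and the JAK-STAT pathway, 6 had a peak (16.2%, 7.65 to 31.1). The Tnf peak, chr17:35200528-35200717, overlaps coding sequence 1287 bp from a start of this inflammatory cytokine gene, lies 4634 bp from Lta, which was counted for the same peak, and held 1 C-form copy. Il10ra, the IL-10 receptor, had 2 peaks, 1 beyond its 3′ end, 17636 bp from a start, with 2 A-form copies and 1 lying 31414 bp upstream with neither form. The peak in an intron of Il21r, the IL-21 receptor (chr7:125630483-125630652, 26946 bp from a start), held 2 A-form copies. Il6st, the shared signalling chain of the IL-6 family (chr13:112427604-112427758, 36312 bp upstream), and Socs3, an inhibitor of JAK signalling (chr11:118014448-118014602, 44401 bp upstream), had peaks with 1 A-form copy each, the latter in coding sequence of Pgs1.

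Of 23 homing and adhesion genes, the integrins Itgb7 and Itgal had a peak (8.70%, 2.42 to 26.8), 6502 bp from a start in an intron and 41728 bp upstream in coding sequence of Zfp771, and neither peak held a form. Of 25 costimulation, checkpoint and survival genes, 3 had one (12%, 4.17 to 29.96). The Cd69 peak (chr6:129284517-129284698) is intergenic, 9081 bp upstream of this early activation marker, with 1 A-form copy. The peak 12268 bp from a start of Cd27, a costimulatory receptor, overlaps a UTR of Vamp1 and held 1 copy. The peak 39762 bp upstream of Tnfrsf9 (4-1BB) is multi-copy, with 33.5% of its 36-base sequences unique and neither form. The other lists gave Ebf1, above, and Pck1, the rate-limiting enzyme of gluconeogenesis, with a C-form peak 6326 bp from a start.

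Peaks lie on both sides of the limits of the rule, which would take 586 peaks at a distance of over 500 bp and 454 at over 2000 bp. The peak just inside the limit of distance, chr7:19002872-19003038, lies 1006 bp from a start of Irf2bp1, and the nearest one outside it that is not mostly soft-masked, chr10:75591634-75591745, 981 bp from Gm9985. The most soft-masked member, chr12:33131758-33131861, is soft-masked over 49.0% of its bases and holds the C-form, and the distal peak just beyond the limit, chr1:85458766-85458920, over 50.3%, with neither form.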

How the data were processed

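GABPα ChIP-seq was done on CD4+ T cells of mice called wild-type, on a C57BL/6 background (1 ChIP and 1 input library). The paper gives that label to Gabpa f/f littermate controls. Per the labels and methods, the authors used Trimmomatic on single-end reads of 36 bases, Bowtie for alignment to mm10 and MACS2 for peaks over the input. They deposited the peak intervals, with an empty score column, so the unit used is position in bp and no depth or per-peak precision could be given. The input has no file used here.

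Intervals were taken as 0-based, set on GRCm38 with the GENCODE M21 annotation and, for further starts, RefSeq, and are printed 1-based. Distance was measured from the nearest base of a peak. Every 36-base sequence of the 21 chromosomes was hashed to find those that occur 1 time. Families were joined by blastn 2.17.0 (at least 60 bp, e-value at most 1e-08). Shares have Wilson and their differences Newcombe 95% intervals (scipy 1.17.1), and medians binomial ones. Scripts ran under Python 3.11.15 with matplotlib 3.10.9, networkx 3.6.1, pandas 2.3.3, numba 0.67.0 and numpy 2.4.6 and were tested on simulated data. The peaks, motifs and gene lists were chosen with earlier results of these data known. Genes named are the T-cell list genes with a peak within 50 kb, the 10 widest unique C-form peaks, the 5 widest peaks and those nearest each limit. The 10 widest A-form peaks, the A-form and the RefSeq starts were added after the data were seen. Alternatives covered the limits of distance and soft-masking, peak width, uniqueness, annotation, motif and window around genes.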

Additional observations from a re-analysis of the deposited data

How the results depend on the processing

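Of 47 alternatives to 8 values, 34 stayed within 1.5 times the count or within the 95% interval of the share or median, and 13 did not. The number of peaks, 514, fell to 342 with more than 5000 bp from a start, to 281 with no soft-masked base and to 231 at or above the median width of the list. With coding genes only, 37.0% were intronic and 54.7% intergenic, and among unique peaks 42.2% were intergenic. The median distance to a coding start was 23452 bp when measured to 1 start per gene. CGGAAG was in 32.1% and GGAA in 86.4% of the peaks; CCGGAAG was in 29.6% of the unique peaks and 31.6% of those at or above the median width. CAGGAAG was in 47.3% of unique peaks and 34.0% of all 514; over the other alternatives, chosen after seeing the data, it ranged from 44.3% to 50.5%. Within 20 kb, 5.48% of the T-cell genes had a peak, beside 1.90% of coding genes, and within 100 kb 16.4%, beside 7.21%. No paired analysis was possible because there is 1 ChIP library. Depth is unknown, so peaks that were not called cannot be told from sites without binding.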
